A study of Mus musculus with 12 samples.

Results

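The suppressors of cytokine signalling (Cish and Socs1 to Socs7) and the serine/threonine kinases Pim1 and Pim2 were followed in long-term haematopoietic stem cells (LT-HSCs) of C57BL/6 mouse bone marrow. These 10 genes were taken by name from a count table of 23472 genes. All 10 passed the filter on low counts, as did 13184 genes in all. The table held 12 libraries. The 6 wt libraries came from cre-negative animals, and the 6 libraries labelled Jak1 KO came from cre-positive animals. Both groups had received 4 doses of poly(I:C), an interferon-inducing RNA duplex, 4 to 6 weeks before the marrow was taken. Within each genotype replicates 1 to 3 were named VD and replicates 4 to 6 were named ZL, and these 2 groups of names are called name sets here. The labels do not name the cre driver, the exons of Jak1 that were targeted or whether each library was a separate animal, so p-values measure the spread between these libraries, which may be technical in part. Only the animals labelled Jak1 KO carried cre, so an effect of cre cannot be told apart from one of Jak1.

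JAK kinases bound to cytokine receptors phosphorylate STAT transcription factors, which switch on target genes that include several SOCS genes. SOCS proteins then act back on the pathway: an SH2 domain binds phosphorylated receptor or kinase, and the SOCS box recruits a ubiquitin ligase of elongins and Cullin 5. SOCS1 and SOCS3 also inhibit JAK catalytic activity directly. PIM kinases are further STAT targets that promote survival and growth of blood cells. They are active as made, so their activity follows their abundance.

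Sequence around the start sites of 6 of the 10 genes (Cish, Socs1, Socs3, Socs4, Pim1 and Pim2) was held in the RefSeq table for GRCm38.p6, and 3 stretches are shown because they hold motifs that STAT or interferon regulatory factors are known to bind. They are written 5′ to 3′ on the strand of the gene, with positions counted from the RefSeq start site (1 is the first transcribed base). Capitals mark matches to TTCNNNGAA, which reads the same on both strands, in Cish and Socs3, and in Socs1 pairs of GAAA set apart by 2 bases, searched on both strands. The stretch of Cish covers positions -3 to 27, at chr9:107296656-107296685 on the plus strand, and lies in an annotated exon. That of Socs3 covers -250 to -86, at chr11:117969452-117969616 on the minus strand, and that of Socs1 covers -250 to -1, at chr16:10785537-10785786 on the minus strand.
Cish: gttTTCCTGGAAagTTCTTGGAAatctgtc
Socs3: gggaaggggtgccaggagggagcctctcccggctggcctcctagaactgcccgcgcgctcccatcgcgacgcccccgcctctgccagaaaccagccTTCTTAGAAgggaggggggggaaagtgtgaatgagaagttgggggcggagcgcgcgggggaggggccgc
Socs1: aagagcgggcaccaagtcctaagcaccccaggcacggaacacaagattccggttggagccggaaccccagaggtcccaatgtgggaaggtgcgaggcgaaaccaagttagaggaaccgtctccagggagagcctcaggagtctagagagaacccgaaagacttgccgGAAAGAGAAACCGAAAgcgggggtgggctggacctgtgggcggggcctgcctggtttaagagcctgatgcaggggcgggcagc

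Cish held 2 matches to TTCNNNGAA, at positions 1 to 9 and 12 to 20, and Socs3 held 1, at -154 to -146. Of 32851 windows of 300 bases around mouse start sites, 8.30% held at least 1 match and 0.457% held 2 or more. The 2 GAAA pairs in Socs1 overlap, at -83 to -74 and -77 to -68, and 3.44% of the windows held at least 1 such pair. Neither motif was found in the windows of Socs4, Pim1 or Pim2.

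Depth ranged from 8989965 to 28701855 counts per library, and ribosomal RNA (Rn45s) made up 14.8% to 22.6% of each VD library and 0.511% to 0.950% of each ZL library. Jak1 itself was not lower over both sets, with a log2 fold change of 0.18 (adjusted p = 0.945 by edgeR, SE 0.20). In VD the libraries labelled Jak1 KO held 375 to 408 normalised CPM (reads scaled to library size) against 321 to 358 in wt. In ZL Jak1 KO 4, 5 and 6 held 246, 386 and 727 CPM against 365 to 435 in wt. Without Jak1 KO 6 the log2 fold change over both sets was -0.0461. An exact two-sided permutation of genotypes within sets gave p = 0.635, where 0.005 is the smallest possible. Counts are per gene, so reads from exons outside any deleted part would still count, and this value does not check the labels. How completely Jak1 was deleted in these cells was not tested. All 9 LT-HSC markers listed were present in every library. Their log2 fold changes ran from -1.12 to 0.29, and 3 of the 9 had an unadjusted p under 0.05 with edgeR, against 5.06% of all genes tested. Adjusted, edgeR and DESeq2 called 0 of them and limma-voom 2. Their summed level, which can hide changes of single markers, was 1477 to 3092 CPM in wt and 1316 to 2924 in libraries labelled Jak1 KO. Summed levels of other cell types were 140 to 1532 and 95.8 to 1518 CPM for 11 granulocyte and monocyte markers, 28.2 to 68.6 and 29.3 to 143 for 6 B cell markers, 1.90 to 3.67 and 1.13 to 8.91 for 5 T cell markers and 89.9 to 361 and 84.9 to 123 for 7 erythroid markers. Hba-a1 and Hba-a2 were at 0 in all 12 libraries, as was Cd3e in 9 of them. Other genes of these lists were expressed: 5 of the 7 erythroid markers and 1 of the 5 T cell markers passed the filter on low counts. The zeros thus do not show that RNA of such cells was absent. The summed level of 7 megakaryocyte markers was 1574 to 1944 CPM in wt and 1169 to 1258 in libraries labelled Jak1 KO in VD, and 1970 to 2379 and 1311 to 1697 in ZL, with no overlap in either set. Of single genes, 1.39% showed no overlap in both sets in the same direction. Of these 7 markers 6 had a log2 fold change below 0 (median -1.002), against 51.0% of all genes tested. An unadjusted p under 0.05 was found for 3 of the 7 with edgeR, against 5.06% of all genes. Itga2b alone was lower with edgeR, while DESeq2 called 2 and limma-voom 3. The summed level of 2 multipotent progenitor markers, Flt3 and Cd48, was 30.6 to 40.1 CPM in wt and 41.5 to 55.7 in libraries labelled Jak1 KO in VD, without overlap, and 30.4 to 41.3 and 40.6 to 57.4 in ZL, with overlap. Neither gene passed with edgeR, DESeq2 or limma-voom, and Flt3 had an unadjusted p under 0.05 (log2 fold change 0.45, edgeR adjusted p = 0.674). The part of such cells in the values below was not tested. In bulk RNA fewer cells of a type and less RNA per cell cannot be told apart.

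The level of each gene was first compared across genes per length, as CPM per kb of exon (RPKM). In wt libraries Pim1 was highest at 30.2 ± 27.1 RPKM, followed by Pim2 at 21.5 ± 10.1, Cish at 12.2 ± 4.91 and Socs5 at 8.49 ± 2.88 (SD, n = 6). The remaining means lay between 4.04 for Socs7 and 2.20 for Socs4. Socs2, Socs6, Socs1 and Socs3 were at 3.71, 3.61, 3.50 and 2.83 RPKM, and each gene differed from the next in this order by less than the larger SD of the pair, except Socs5 from Socs7. The order depended on the name set, both in its upper part and for Socs7. In VD wt libraries Pim1 was at 54.6 ± 6.46 RPKM and Pim2 at 12.7 ± 1.29, while in ZL wt libraries Pim1 was at 5.70 ± 2.23 and Pim2 at 30.3 ± 4.59 (SD, n = 3). Socs7 was at 7.17 ± 0.921 RPKM in VD wt libraries and at 0.915 ± 0.212 in ZL wt libraries (SD, n = 3). Its mean of 4.04 over both sets was thus the level of neither set.

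**Figure D1:**
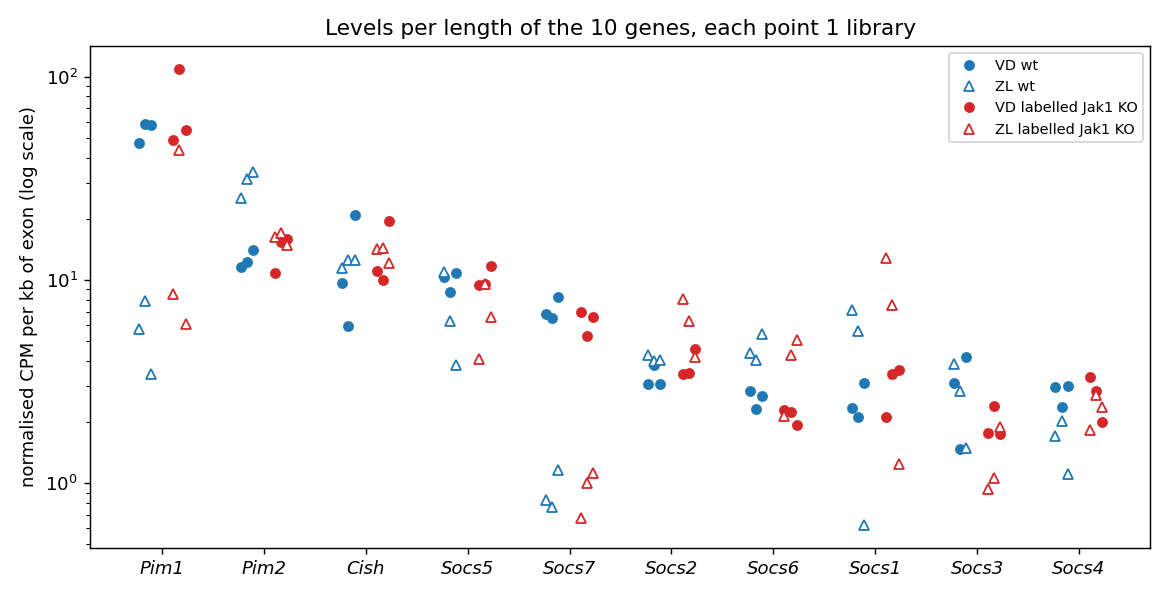
Normalised CPM per kb of exon (y axis, log scale) of the 10 genes (x axis, ordered by the wt mean). Each point is 1 library, filled circles VD and open triangles ZL, blue wt and red labelled Jak1 KO; Pim1 and Socs7 separate the name sets without overlap.

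Pim1 and Socs7 separated the name sets completely. Socs7 stood at 47.1 to 59.7 CPM in VD wt libraries and at 5.55 to 8.41 in ZL wt libraries, 7.84-fold higher in VD. Pim1 stood at 159 to 198 CPM in VD wt libraries and at 11.6 to 26.5 in ZL wt libraries, 9.58-fold higher in VD. For these 2 of the 10 genes all 6 VD libraries lay above all 6 ZL libraries, an arrangement found in 15.8% of the 13184 genes, while 38.4% separated the sets in either direction, so 2 of 10 is near the background. Depth, the Rn45s share and the summed granulocyte and monocyte markers also differed between the name sets. Those markers summed to 584 to 1532 CPM in VD libraries and to 95.8 to 260 in ZL libraries, without overlap. The part of each in the Pim1 and Socs7 levels was not tested. Genotypes were therefore compared with the name set as a term, and within each set.

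The comparison between genotypes asked whether feedback genes of the JAK-STAT pathway differ between stem cells labelled Jak1 KO and wt. None of the 10 genes passed. With edgeR's quasi-likelihood test adjusted over all genes, 0 of 10 were called, against a background of 0.44% (58 of 13184 genes, 57 of them lower). DESeq2 and limma-voom also called 0 of the 10, but DESeq2 gave Pim1 no adjusted p, so Pim1 could not be called there. At an unadjusted p under 0.05 there were 3 of 10 with edgeR, Socs3 lower and Socs2 and Pim1 higher, against 5.06% of all genes. That count depended on single libraries and on the tool. It was 0 without wt 4 or Jak1 KO 5, and 1 without wt 3, wt 5, wt 6 or Jak1 KO 4 and with no set term. With limma-voom and with DESeq2 it was 2 (Socs2 and Socs3), and the DESeq2 count may leave Pim1 out, as its adjusted p was missing. The 10 log2 fold changes had a median of 0.07, with 5 below 0 and 5 above, and all genes tested had a median of -0.01 with 51.0% below 0.

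**Figure D2:**
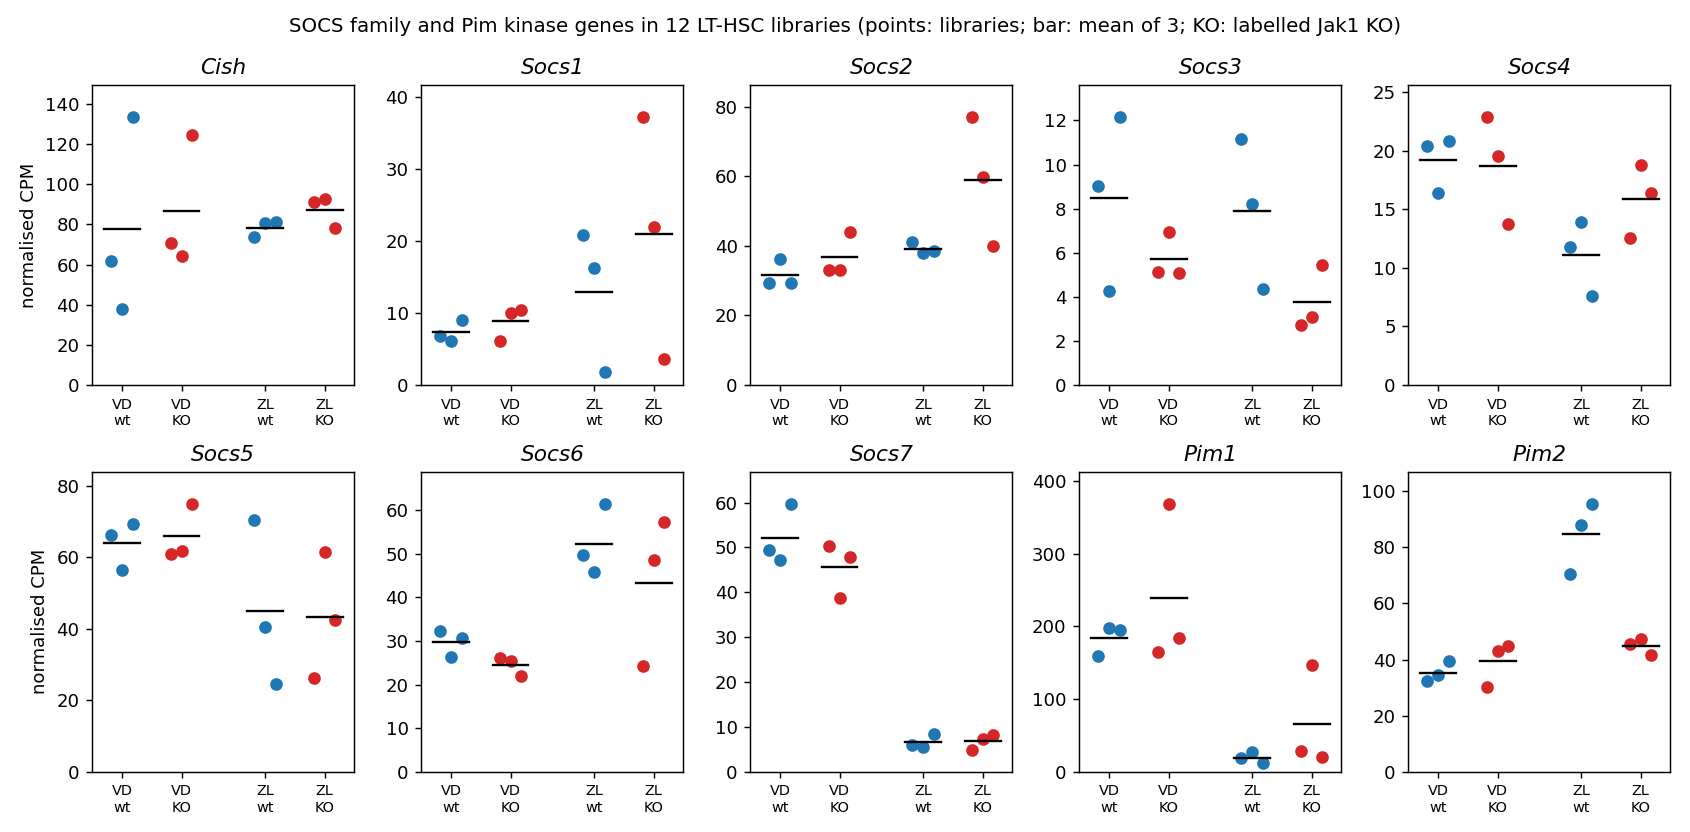
Normalised CPM (y axis, linear from 0) of each gene in the 12 libraries by name set and genotype (x axis). Points are libraries, in order of replicate number, and bars are means of 3; Pim2 in ZL shows no overlap between genotypes, at 70.5 to 95.5 CPM in wt and 41.8 to 47.4 in libraries labelled Jak1 KO.

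Cish, the founding member of the family and a STAT5 target that restrains signalling through STAT5-activating receptors, had the highest mean per length among the SOCS genes. In VD it stood at 61.8, 38.0 and 133 CPM in wt 1, 2 and 3 and at 70.8, 64.4 and 125 in Jak1 KO 1, 2 and 3. In ZL it stood at 73.5, 80.7 and 81.0 CPM in wt 4, 5 and 6 and at 91.1, 92.4 and 78.2 in Jak1 KO 4, 5 and 6. The genotypes overlapped in both sets, and libraries numbered 3 held the highest value of each genotype in VD. The log2 fold change was 0.15 (adjusted p = 0.947 by edgeR, SE 0.26), with a 95% interval from 1.31-fold lower to 1.63-fold higher. This interval is not adjusted for the number of genes. In VD alone the interval of Cish reached lower, to a log2 fold change of -0.51.

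Socs2, which limits growth hormone signalling and is induced through STAT5, had the higher mean in libraries labelled Jak1 KO in both sets. In VD the wt libraries held 29.2, 36.3 and 29.4 CPM and the libraries labelled Jak1 KO held 33.0, 33.1 and 43.9. In ZL the wt libraries held 41.0, 37.9 and 38.4 CPM and those labelled Jak1 KO held 77.0, 59.8 and 39.9. Jak1 KO 4 and Jak1 KO 5 thus lay above every wt library, while Jak1 KO 6 lay inside the range of the ZL wt libraries. The log2 fold change was 0.40 (adjusted p = 0.916 by edgeR, SE 0.18), with a 95% interval of 0.02 to 0.78 before any adjustment.

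Socs3, a direct inhibitor of JAK kinases bound to gp130 receptors and induced through STAT3, had the smallest p of the 10. It was also among the least abundant, with 36 to 287 reads per library. In VD it stood at 9.02, 4.26 and 12.2 CPM in wt and at 5.12, 6.95 and 5.06 in libraries labelled Jak1 KO. In ZL it stood at 11.1, 8.21 and 4.33 CPM in wt and at 2.72, 3.08 and 5.46 in libraries labelled Jak1 KO. Because wt 2 and wt 6 were low, the genotypes overlapped in both sets. The log2 fold change was -0.83 (adjusted p = 0.818 by edgeR, SE 0.32), with a 95% interval of -1.51 to -0.14 before any adjustment.

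Socs1, an inhibitor of JAK kinases that is induced by interferons, varied more between libraries of 1 genotype than between genotypes. In VD it ranged from 6.17 to 9.09 CPM in wt and from 6.16 to 10.5 in libraries labelled Jak1 KO. In ZL it stood at 20.8, 16.3 and 1.82 CPM in wt 4, 5 and 6 and at 37.3, 21.9 and 3.63 in Jak1 KO 4, 5 and 6. Libraries numbered 6 held the lowest values of both genotypes. The log2 fold change was 0.48 (adjusted p = 0.945 by edgeR, SE 0.53), and its 95% interval ran from 1.57-fold lower to 3.06-fold higher, the widest of the 10 genes.

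Socs4 to Socs7 are less tied to STAT activation, and Socs4 and Socs5 are known to act on the EGF receptor. Their log2 fold changes were 0.24 for Socs4, -0.01 for Socs5, -0.27 for Socs6 and -0.08 for Socs7, with edgeR adjusted p from 0.945 to 0.997. Socs6 was the exception to overlap in VD, at 32.2, 26.2 and 30.6 CPM in wt and 26.0, 25.5 and 21.9 in libraries labelled Jak1 KO. Every VD library labelled Jak1 KO thus lay below every VD wt library, as for 13.2% of genes, but in ZL the ranges of 45.7 to 61.4 and 24.2 to 57.3 CPM overlapped. Socs5 was nearly level, at 54.5 ± 18.4 CPM in wt and 54.5 ± 17.3 in libraries labelled Jak1 KO (SD, n = 6), with a 95% interval from 1.45-fold lower to 1.43-fold higher. Within each set the wt and Jak1 KO ranges of Socs4 and of Socs7 also overlapped.

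Libraries Jak1 KO 4 and wt 6 were each at an end of the range for 4 of the SOCS genes. Jak1 KO 4 held the highest Socs1 and Socs2 values of all 12 libraries and the lowest Socs3 and Socs7 values, 2.72 and 4.90 CPM. Library wt 6 held the lowest Socs1, Socs4 and Socs5 values, 1.82, 7.63 and 24.4 CPM, and the highest Socs6 value, 61.4 CPM. It also held the lowest Pim1 and the highest Pim2 value, 11.6 and 95.5 CPM. Without Jak1 KO 4 the log2 fold change was 0.18 for Socs1, 0.32 for Socs2 and -0.11 for Socs6, and that of Jak1 was 0.35. Without wt 6 these were 0.22, 0.38, -0.22 and 0.19.

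Pim1, a kinase gene induced by STAT5 and STAT3 in blood cells, had the largest difference of the 10 and 1 of the widest intervals. In VD it stood at 159, 198 and 195 CPM in wt and at 165, 368 and 184 in libraries labelled Jak1 KO. In ZL it stood at 19.4, 26.5 and 11.6 CPM in wt and at 28.7, 146 and 20.3 in libraries labelled Jak1 KO. A single library of each set stood apart, Jak1 KO 2 in VD and Jak1 KO 5 in ZL, and the other libraries labelled Jak1 KO lay near or within the range of wt. The log2 fold change was 1.07 (adjusted p = 0.902 by edgeR, SE 0.46), with a 95% interval of 0.08 to 2.06 before any adjustment. It was 0.37 without Jak1 KO 5.

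Pim2, a kinase gene that shares survival targets with Pim1, differed most plainly in ZL. There it stood at 70.5, 87.9 and 95.5 CPM in wt and at 45.5, 47.4 and 41.8 in libraries labelled Jak1 KO, with no overlap, as for 2.34% of genes toward lower values. In VD it stood at 32.4, 34.3 and 39.3 CPM in wt and at 30.2, 43.2 and 44.7 in libraries labelled Jak1 KO. The libraries labelled Jak1 KO of the 2 sets thus overlapped, whereas the ZL wt libraries lay 2.39-fold above the VD wt libraries. The log2 fold change was -0.91 in ZL alone (adjusted p = 0.946 by edgeR, SE 0.25) and 0.19 in VD alone (SE 0.17, adjusted p = 0.681). The difference between these effects, tested as an interaction over all 12 libraries, was -1.07 (adjusted p = 0.975 by edgeR, SE 0.31). Over both sets the log2 fold change of Pim2 was -0.39 (SE 0.21, adjusted p = 0.945).

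**Figure D3:**
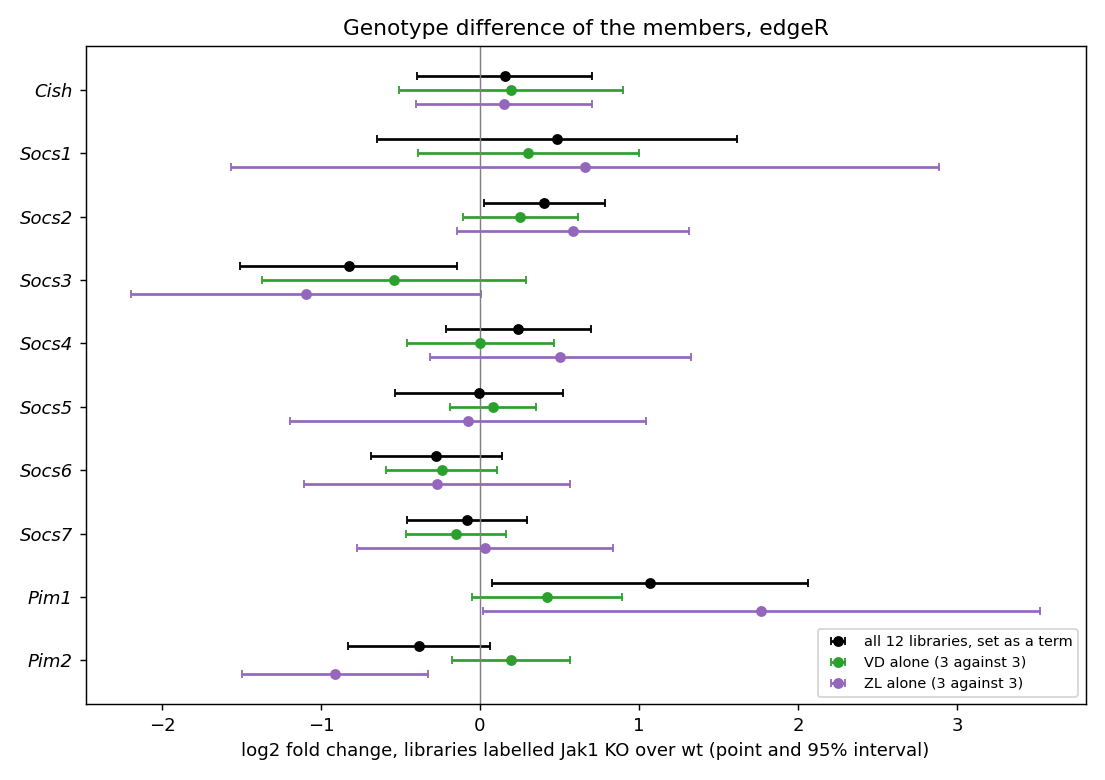
Log2 fold change of libraries labelled Jak1 KO over wt with its 95% interval (x axis, edgeR, not adjusted for the number of genes) for each gene, over all 12 libraries with the name set as a term and in each set alone. Intervals of Socs1 and Pim1 are widest over all 12 libraries and in ZL alone, and that of Socs3 is widest in VD alone. The Pim2 intervals of VD and ZL lie on different sides of 0 at their centres, 0.19 and -0.91.

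Within single sets none of the 10 genes passed either. In VD alone edgeR called 0 of 10, against 1.15% of 12903 genes, and 0 of the 10 had an unadjusted p under 0.05, against 13.6% of genes. In ZL alone it called 0 of 10 and 0% of 13859 genes. There Pim1 and Pim2, 2 of the 10, had an unadjusted p under 0.05, against 1.63% of genes. The interaction of genotype and name set called 0 of 10 and 0% of all genes. Pim2 alone of the 10 had an unadjusted p under 0.05 for it, against 1.38% of genes. DESeq2 called 0 of the 10 in each of these 3 comparisons.

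The same test was read for other genes of the pathway. Irf9, a transcription factor that binds DNA for the type I interferon response, was lower with edgeR. It was at 123 CPM in wt and 47.1 in libraries labelled Jak1 KO, 2.55-fold lower (log2 fold change -1.35, adjusted p = 0.00034 by edgeR, SE 0.14). Its genotypes did not overlap within either set, as for 183 of 13184 genes (1.39%) in either direction. Stat2, another factor of the type I interferon response, was at 69.6 and 43.6 CPM and did not pass (log2 fold change -0.68, edgeR adjusted p = 0.945).

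Stat3, Stat5a and Stat5b, which encode known regulators of several of the 10 genes, did not pass, with log2 fold changes of -0.30, -0.28 and -0.20 (edgeR adjusted p = 0.945 each). Of 13 further STAT3 or STAT5 targets 0 passed with edgeR, DESeq2 or limma-voom, and 1 had an unadjusted p under 0.05, with a median log2 fold change of -0.12. That gene was Bcl2l1, which encodes the survival protein BCL-XL, at 68.6 CPM in wt and 49.2 in libraries labelled Jak1 KO (log2 fold change -0.50, edgeR adjusted p = 0.825). Osm, a cytokine gene induced through STAT5, was at 9.52 and 7.18 CPM, and Pim3, the third PIM kinase, at 29.2 and 31.6. Of 11 other brakes on the pathway (phosphatases, PIAS proteins, Sh2b3 and Cbl) 0 passed with the same 3 tools and 0 had an unadjusted p under 0.05, with log2 fold changes from -0.11 to 0.15.

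Of 29 receptor genes, 23 were tested and 0 passed with edgeR, while 2 had an unadjusted p under 0.05. Lifr, the leukaemia inhibitory factor receptor, was at 1.31 CPM in wt and 0.321 in libraries labelled Jak1 KO (log2 fold change -2.07, edgeR adjusted p = 0.248) and was called by DESeq2. Epor, the erythropoietin receptor, was at 32.8 and 23.9 CPM (log2 fold change -0.49, edgeR adjusted p = 0.767) and was called by limma-voom. The 4 SOCS box ligase partners had log2 fold changes from -0.02 to 0.34 and the 6 PIM substrates from -0.31 to 0.31. In both lists 0 genes passed with edgeR, DESeq2 or limma-voom and 0 had an unadjusted p under 0.05.

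**Figure D4:**
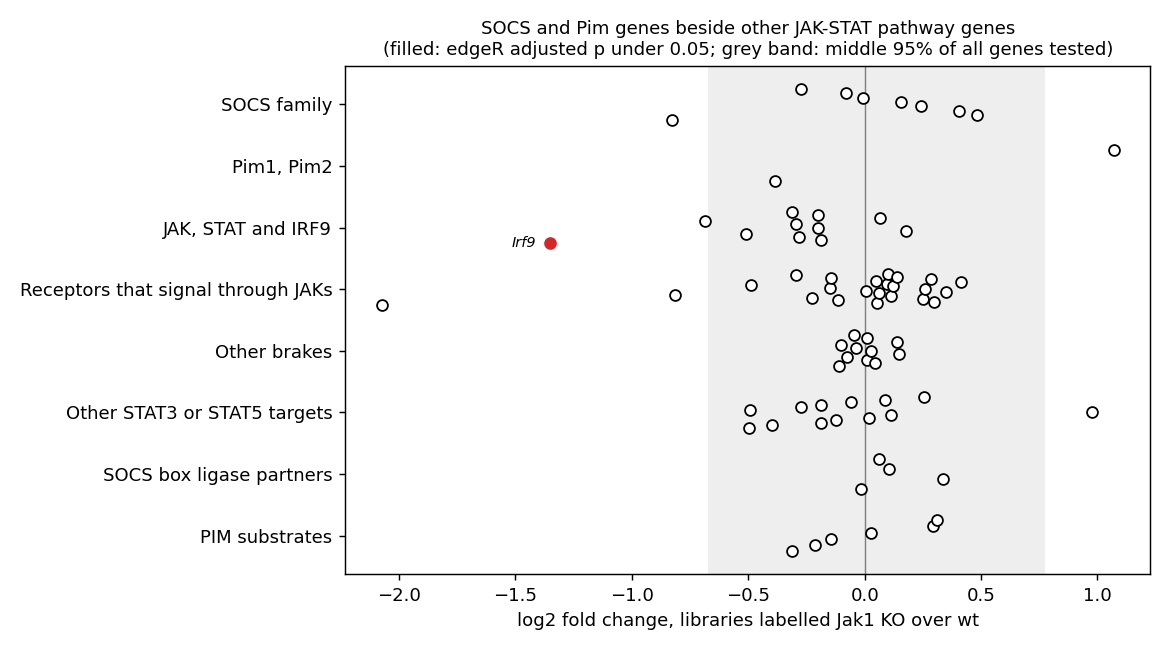
Log2 fold change of libraries labelled Jak1 KO over wt (x axis) of SOCS and Pim genes and of genes from 6 other pathway lists (y axis). Each point is a gene, filled where edgeR's adjusted p is under 0.05, and the grey band spans the middle 95% of all genes tested (-0.67 to 0.77); Irf9 is the filled point.

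For the 3 genes with the smallest p, the genes with the most similar pattern were sought by Pearson's r of log2 CPM centred within name sets over the 12 libraries, as a description only, since they are the highest of all genes tested. Socs3 was most like Arsg (r = 0.95, Spearman 0.96), Pcdhb18 (0.84, Spearman 0.86) and Esrra (0.83, Spearman 0.86). Pim1 was most like Igf2bp3 (0.79, Spearman 0.55), Nek6 (0.77, Spearman 0.69) and AI854703 (0.77, Spearman 0.90). Socs2 was most like Tnfrsf18 (0.92, Spearman 0.85), Capsl (0.91, Spearman 0.81) and Tgif1 (0.90, Spearman 0.71).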

How the data were processed

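Values in the deposited table are unnormalised read counts that the authors made with STAR 2.3.0e, featureCounts and Subread on mm10, per the submitters' processing notes. Annotation and strandedness are not given in the sources here, so reads of annotated antisense genes that overlap exons of Cish and Pim1 cannot be told apart from theirs. TRIzol RNA went into poly-A libraries, per the labels' protocols. Columns were matched to samples by description.

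Genes were kept by filterByExpr, scaled by TMM and tested with edgeR 4.0.16 (R 4.3.3) by quasi-likelihood with terms for name set and genotype, with Benjamini-Hochberg adjustment across every tested gene, at a threshold of 0.05. SE was taken from the fold change and F. Fits of single sets were filtered anew. DESeq2 1.42.0 and limma 3.58.1 (voom with quality weights) were alternatives. Log2 CPM had a prior count of 2. RPKM used the union of GENCODE M21 exons (GRCm38), which understates genes whose shorter transcripts prevail. Scripts were tested on simulated data. Over both sets 11.6% of DESeq2's calls there were false, against 1.39% for edgeR and 2.11% for limma-voom. Libraries of a group within a set differed beyond sampling noise (chi-square per degree of freedom at least 14.4). Named genes were Jak1, the 10 genes, up to 3 of each pathway list by p with any called, and the 3 most similar genes of the 3 smallest p. Stat3, Stat5a, Stat5b and Pim3 were added for their role and Itga2b and 3 markers at 0 for theirs, with values seen. One gene of the JAK, STAT and IRF9 list is not reported here. Genes and lists were chosen with earlier results of these data known.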

Additional observations from a re-analysis of the deposited data

Results flagged for a closer look

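Pim2 in library Jak1 KO 1 lay far from the others of its genotype: it stood at 30.2 CPM, while the other 5 libraries labelled Jak1 KO lay between 41.8 and 47.4 CPM. Its gap to the nearest library was 0.671 of the range of the 6, above Dixon's 95% critical value. Of 20 groups tested (10 genes in each genotype) this was the only 1 past that value, and chance gives about 1 in 20 where a group is homogeneous. Each group of 6 here pools both name sets, whose levels differ, so that rate is only a guide. Jak1 KO 1 is a VD library, and the VD wt libraries stood at 32.4 to 39.3 CPM.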

How the results depend on the processing

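The count of 0 among the 10 genes held under every alternative run: DESeq2 size factors, upper quartile factors, no filter, a minimum of 1 CPM in 6 libraries, DESeq2's Wald test, limma-voom, no set term, the replicate block, library sizes without Rn45s, an adjusted p of 0.1 and each library left out in turn. It also held without wt 6, Jak1 KO 4 and Jak1 KO 6 at once, a set chosen after seeing the data. With DESeq2's Wald test over all 12 libraries Pim1 had no adjusted p, so that count leaves Pim1 out. Counts in VD alone, in ZL alone and for the interaction were 0 of 10 in every fit without 1 library, with DESeq2 and with no filter, and in both sets with the replicate block. In simulations edgeR found 6.06% of genes changed by a log2 fold change of 1 in VD (12748 genes). It was 5.1% in ZL (13026), 0% for the interaction (12902) and 50% over both sets (12907). ZL and interaction counts thus say little. VD itself gave 149 calls, so 6.06% may not hold. The number of all genes called was 58, and became 126 with DESeq2, 220 with limma-voom, 14 with no set term and 96 without those 3 libraries. It ranged from 39 to 77 with 1 library left out, and the cause was not tested. With the replicate block it was 72 genes and 0 of the 10, and Pim1, Socs1 and Socs2, without Socs3, had an unadjusted p under 0.05. The labels do not say what a number marks. The correlations of same-numbered libraries ranged from 0.0429 to 0.668 with 4 of 6 over 0.1, and 6 of 12 libraries, those numbered 2, 3 and 6, correlated best with their own number. Pairing required all 6 to be over 0.1, so the numbers were not taken as pairs, and a partial pairing cannot be told apart from a shared number.

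Socs5 changed sign under several alternatives: 0.0208 with DESeq2 size factors, 0.0207 with the DESeq2 test, 0.0350 with upper quartile factors, 0.0299 with no filter, 0.0997 with limma-voom, 0.00202 with no set term, 0.0312 with the replicate block, 0.0390 without Rn45s, 0.118 without the 3 libraries and 0.0816 in VD alone. Socs7 turned to 0.00737 without the 3 libraries and to 0.0309 in ZL alone, and Pim2 to 0.19 in VD alone. With 1 library left out the log2 fold change ranged from -0.15 to 0.21 for Socs5, -0.16 to 0.0243 for Socs7, -0.00263 to 0.43 for Cish, -0.0461 to 0.35 for Jak1, 0.37 to 1.26 for Pim1, -0.99 to -0.65 for Socs3, 0.18 to 0.70 for Socs1, 0.32 to 0.48 for Socs2, 0.12 to 0.35 for Socs4, -0.39 to -0.11 for Socs6 and -0.48 to -0.28 for Pim2. The lowest libraries of Socs1 and Socs3 held 49 and 36 reads, and the part of counting error in their intervals was not tested.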
